A study of Trichoderma atroviride with 42 samples.

Results

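The 34 genes described here belong to the filamentous fungus Trichoderma atroviride, and their product texts name glutathione, thioredoxin, glutaredoxin, a superoxide dismutase, a peroxidase or a catalase. They were selected by these words from the genes that the authors' deposited table lists as changed 30 min after mechanical injury. They are 34 of 11786 genes counted. That table holds 3323 genes, of which 2865 carry a product text and 36 carried one of the words, and 2 catalases among the 36 were left out. By text, 15 genes hold a glutathione S-transferase domain, 6 name another glutathione enzyme or domain and 7 a thioredoxin domain or fold. A further 3 are catalases or peroxidases, and there is 1 gene each for a copper/zinc superoxide dismutase, a glutathione peroxidase and a glutaredoxin. No text named a peroxiredoxin. All 34 passed the filter on low counts and were tested. The texts name domains, not enzymes assayed in this fungus, so each role below is that of the domain. For example, phosducin-like proteins share the thioredoxin fold but are known in other eukaryotes as helpers of G protein assembly.

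Wild-type mycelium was raised from conidia on potato dextrose agar with cellophane for 36 h in the dark at 27 °C, and no group carried a modified gene. It was then cut with a scalpel (mechanical injury, MI), grazed for 10 min by larvae of the fruit fly Drosophila melanogaster (Dm), or grazed for 10 min by the springtail Orthonychiurus folsomi (Of), after which the animals were removed. These 3 treatments were each sampled at 4 times, 30 min and 90 min as well as 4 h and 8 h later, and group names join treatment and time, such as Dm_90min. Untreated plates opened for 2 min in the dark were the controls CT0 and CT8, where CT0 is labelled time 0 but was incubated for 30 min per the labels' protocols. Each of the 14 groups has 3 libraries of whole mycelium. Per the series' design text they are biological replicates, each made of 3 pooled technical replicates. Of the animals, neither age nor number is stated in the sources used here.

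Cells make reactive oxygen species as by-products of respiration and, through NADPH oxidases, as signals. In Trichoderma atroviride, a cut through the hyphae is known to set off a burst of them and, later, the formation of conidia, the asexual spores. Superoxide dismutase turns superoxide into hydrogen peroxide, which catalases and peroxidases remove. Glutathione, a small thiol, feeds glutathione peroxidases, while glutathione S-transferases join it to reactive compounds. Thioredoxins and glutaredoxins reduce disulphide bonds in proteins, with electrons that stem from NADPH and reach glutaredoxins by way of glutathione.

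Total counts per library ran from 1152096 to 5398093. The 4 lowest totals belonged to replicate 3 of Dm_90min, replicate 2 of Dm_8h, replicate 2 of CT0 and replicate 1 of Of_30min, and each of the others held at least 2260001. No libraries were identical, and the labels give no batch. A single gene, Tatro_002410-T1, held 16.9% of the counts in CT0 replicate 2, 14.9% in Dm_8h replicate 2 and 12.5% in Of_30min replicate 1. In Dm_90min replicate 3 it held 2.79%, and its part in the results was not tested. A list of 9 growing-hypha genes (actin family, tubulins with tubulin-associated proteins, and chitin synthases) was expressed in every group, with none at 0. Its summed level was 5136 to 5557 CPM in MI_90min, 6139 to 6919 in Dm_90min and 10264 to 11073 in Of_90min. CPM is a gene's count relative to its library's total, scaled by TMM, a factor that corrects for differences in RNA composition. In whole mycelium, fewer cells of a type and less RNA per cell cannot be told apart. Levels are compared between groups and not between genes, since no gene lengths were used.

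At 30 min after injury, in the comparison that selected the genes, 27 of 34 were listed as lower and 7 as higher. In the authors' deposited table their log2 changes ran from -2.30 to 3.08 with a median of -0.78. These values describe the selection and were not tested. The largest false discovery rate in the authors' deposited table is 0.005. The selected gene nearest to that limit was the S-transferase-domain gene Tatro_005907-T1 at 0.00367, and the gene at the limit itself has no product text. Among the 7 listed as higher were the glutathione peroxidase, the low-level catalase-domain gene Tatro_006112-T1, 3 S-transferase-domain genes, the DSBA-like thioredoxin-domain gene Tatro_001360-T1 and the formaldehyde-activating-domain gene Tatro_000527-T1. The selection used the 9 libraries of MI_30min, CT0 and CT8. The other 33 were not used in it, and 13 of the 25 comparisons tested set only groups of those 33 against each other. The filter, scaling and estimate of spread behind them still came from all 42 libraries, the selecting ones included. Below, a comparison free of the selecting libraries is one in this sense.

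**Figure D1:**
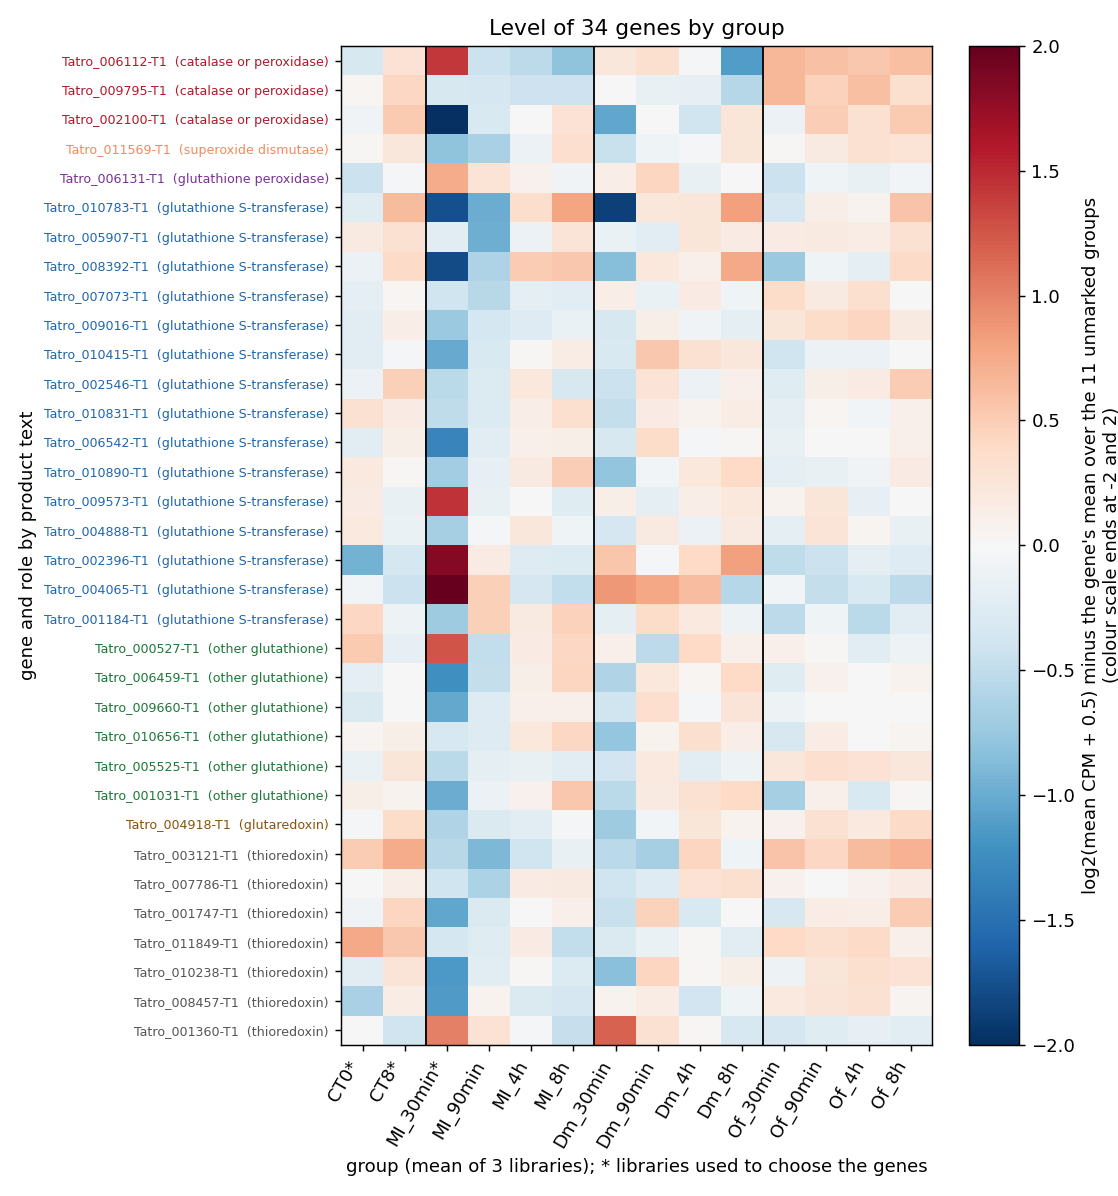
Level of each of the 34 genes (rows, coloured by role) in each of the 14 groups (columns), as log2 of the mean CPM plus 0.5 minus the gene's mean over the 11 groups that were not used to select the genes; starred columns are the groups used. Most rows are blue at MI_30min, where 27 of 34 genes were selected as lower, and several are also blue at MI_90min and Dm_30min.

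The question put to the injury and larva groups was whether grazing by larvae differs from a plain cut. At 90 min many of the 34 genes were higher in larva-grazed than in injured mycelium. Of the 34, 14 were called higher in Dm_90min than in MI_90min, beside 6.73% of the 9193 genes tested, and 0 were called lower, beside 4.99%. A call here is an adjusted p under 0.05 in edgeR's quasi-likelihood test across all genes. At an unadjusted p under 0.05 edgeR gave 19 higher and 0 lower, and DESeq2 also called 14 higher and 0 lower. The log2 difference was above 0 for 29 of 34, with a median of 0.34 beside -0.00 over all genes tested. By role the calls took in 8 of 15 S-transferase-domain genes, 3 of 7 thioredoxin-domain genes, 2 of 6 other glutathione genes and the superoxide dismutase. None of the 3 catalases and peroxidases, the glutathione peroxidase or the glutaredoxin was called. All 14 called genes were selected as lower early after injury, so low levels in MI_90min cannot be set apart from that selection. The shares of all genes carry no such selection.

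How many genes passed depended on which libraries were used. The shallow library Dm_90min replicate 3 had the highest levels of the set, with a median over the 34 genes of 0.41 on the log2 scale relative to each gene's mean, beside 0.05 and -0.03 in replicates 1 and 2. Without it 7 genes were called higher. Without MI_90min replicate 1, whose median of -0.44 was below those of the other injured libraries at 90 min (-0.26 and -0.20), 6 were called. No gene was called lower in any of these. With library totals alone in place of TMM scaling 9 were called higher, beside 344 higher and 599 lower of all 9193 genes tested. Without the 4 shallowest libraries 7 were called higher. With only the 6 libraries of both groups in the fit no gene was called, with a median log2 difference of 0.35 and an adjusted p of 0.074 for the largest difference. The 5 genes called higher whichever of the 6 libraries was left out were the S-transferase-domain genes Tatro_005907-T1, Tatro_010415-T1 and Tatro_010783-T1, the thioredoxin-domain gene Tatro_010238-T1 and the formaldehyde-detoxifying dehydrogenase gene Tatro_009660-T1. The growing-hypha list was also higher in Dm_90min than in MI_90min (4 of 9 called higher and 1 lower), and its part in these differences was not tested.

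**Figure D2:**
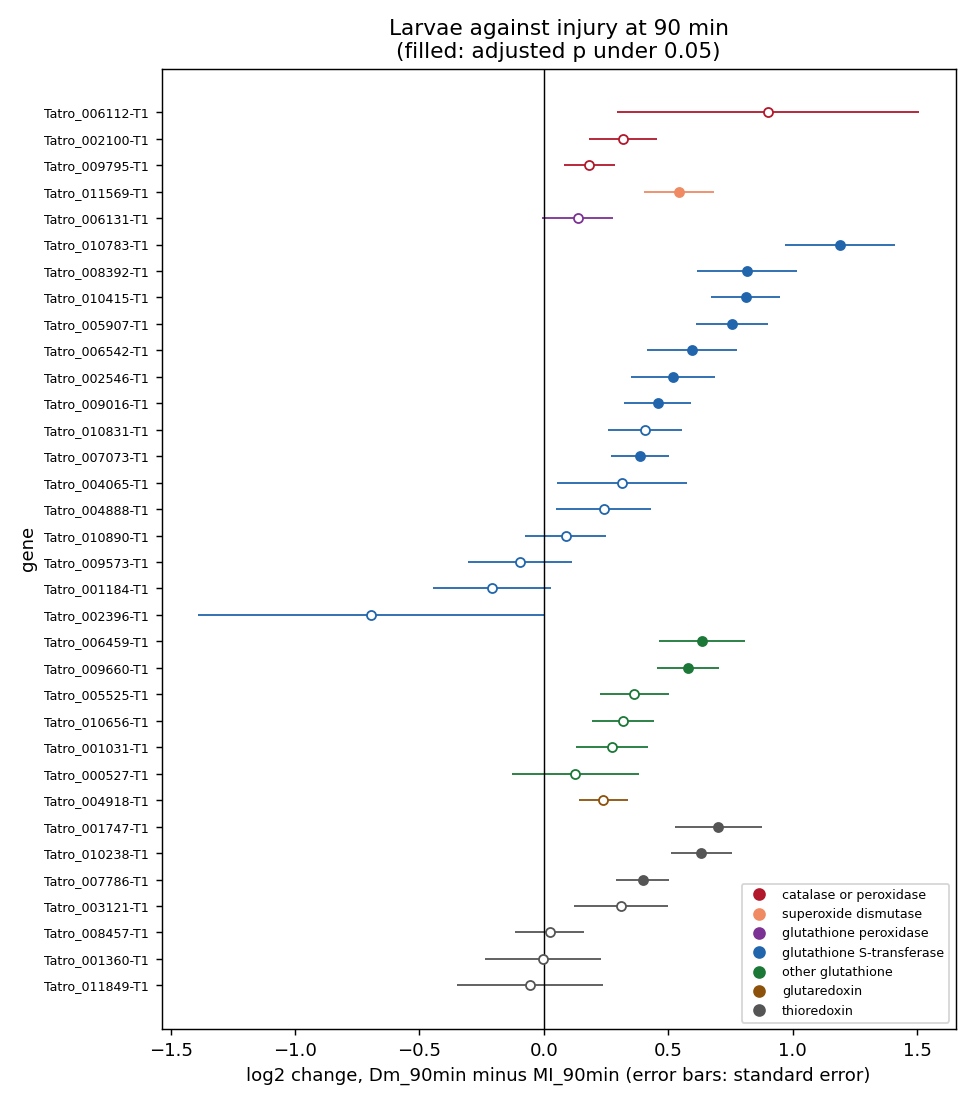
Log2 difference between Dm_90min and MI_90min for each of the 34 genes, ordered within role, with the standard error as bars; filled points have an adjusted p under 0.05. The 14 filled points all lie to the right of 0, from 0.39 to 1.19. Most of the 34 genes were selected as lower early after injury.

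At 4 h and 8 h larva-grazed and injured mycelium differed in few of the genes. At 4 h 3 of 34 were called higher after larvae (3.89% of all genes tested) and 0 lower (2.22%), with 2 lower at an unadjusted p under 0.05 and 4 higher and 0 lower in DESeq2. With library totals alone 3 were higher and 1 lower, and without MI_4h replicate 1 the 3 became 1. At 8 h edgeR called 0 higher (0.914%) and 0 lower (0.598%), with 5 at an unadjusted p under 0.05 and 0 in DESeq2. Without Dm_8h replicate 3, 1 gene was called at 8 h. The change of the larva-injury difference was tested directly, as a comparison added after the data were seen. The difference was larger at 90 min than at 4 h for 7 genes (1.98% of all genes) and smaller for 0 (1.07%). It was larger at 90 min than at 8 h for 6 genes (2.86%) and smaller for 0 (1.88%). At an unadjusted p under 0.05 these were 15 and 14 genes, of which 1 and 0 were smaller. Without MI_90min replicate 1 the 2 counts were 0 and 1. All 7 and all 6 genes were among those selected as lower early after injury. As both tests use MI_90min, larger differences at 90 min cannot be set apart from that selection. The shares of all genes carry no such selection.

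**Figure D3:**
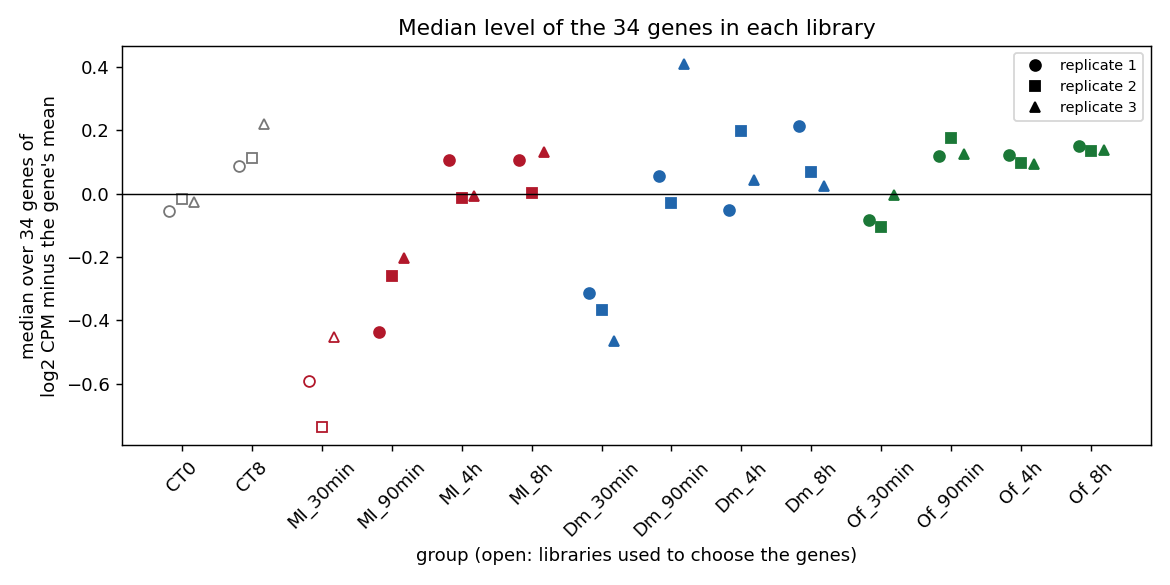
Median over the 34 genes, in each of the 42 libraries, of log2 CPM relative to the gene's mean; symbols mark replicates and open symbols the 9 libraries used to select the genes. The MI_90min libraries lie between -0.44 and -0.20 and those of Dm_30min between -0.46 and -0.31, while Dm_90min replicate 3 is the highest at 0.41.

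Among the hydrogen peroxide-removing enzymes, the haem peroxidase gene Tatro_009795-T1 was higher in springtail-grazed than in larva-grazed mycelium at all times and than in injured mycelium from 90 min on. It stood at 2355, 2274 and 2093 CPM in the 3 libraries of Of_30min and at 1503, 1391 and 1412 in Dm_30min. At 8 h the libraries held 1887, 1823 and 1614 CPM after springtails, 1069, 1091 and 1029 after injury and 1064, 818 and 988 after larvae. The springtail libraries lay above the larva-grazed ones at both times and above the injured ones at 8 h. The log2 differences between larvae and springtails ran from -0.60 ± 0.10 (SE) at 90 min (adjusted p = 2.22e-05) to -0.89 ± 0.10 at 8 h (adjusted p = 3.12e-08). After injury it was also lower than after springtails at all 3 times compared, with a log2 difference of -1.03 ± 0.10 at 4 h (adjusted p = 1.43e-09). The untreated mycelium held 1462 ± 49.7 CPM in CT0 and 1889 ± 52.2 in CT8 (SD, n = 3). Between 30 min and 8 h after larvae the gene fell, with a log2 change of -0.58 ± 0.10 (adjusted p = 1.55e-05).

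The catalase-peroxidase gene Tatro_002100-T1, for an enzyme that breaks down hydrogen peroxide in both ways, was low early after larvae. Its libraries held 172, 169 and 149.8 CPM in Dm_30min and 282, 297 and 345 in Of_30min, without overlap. That is a log2 difference of -0.92 ± 0.14 (adjusted p = 1.6e-06). The level then rose to 455, 360.3 and 377 CPM in Dm_8h, a log2 change of 1.28 ± 0.14 (adjusted p = 1.44e-09). It also rose after springtails, from 30 min to 8 h, by 0.63 ± 0.14 (adjusted p = 0.0033), and untreated mycelium went from 319 ± 82.3 CPM in CT0 to 479.9 ± 43.3 in CT8. The catalase-domain gene Tatro_006112-T1 was near the limit of detection, with group means from 0.828 CPM in Dm_8h, where 1 library held no read, to 7.21 in MI_30min. Its libraries held 3.09, 4.9 and 3.63 CPM in Of_8h and 1.14, 1.34 and 0 in Dm_8h, values that rest on few reads.

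The copper/zinc superoxide dismutase gene Tatro_011569-T1 was lowest early after damage. Injured libraries held 578, 614 and 549.6 CPM at 30 min, where the gene was selected as lower, and 537, 725 and 691 at 90 min. By 8 h they held 1224, 1374 and 1262. All 8 h values lie above all earlier injured ones, and the rise from 90 min was 0.98 ± 0.14 on the log2 scale (adjusted p = 3.71e-07). After larvae the gene went from 686, 792 and 748 CPM at 30 min to 1445, 1092 and 1056 at 8 h, again without overlap (log2 change 0.69 ± 0.14, adjusted p = 0.000103). At 90 min the larva-grazed libraries held 752, 772 and 1339 CPM, and the third, from the shallow library, stands far above the others. The log2 difference from MI_90min was 0.55 ± 0.14 (adjusted p = 0.0089). Without Dm_90min replicate 3 it was 0.23 (adjusted p = 0.248), and without MI_90min replicate 1 it was 0.41 (adjusted p = 0.12). Springtail-grazed mycelium held 1030.5 to 1248 CPM as group means at the 4 times, and MI_90min was lower than Of_90min, with a log2 difference of -0.82 ± 0.14 (adjusted p = 1.09e-05).

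The glutathione peroxidase gene Tatro_006131-T1 went the other way from most of the set and was high early after damage. It stood at 352, 323 and 299.9 CPM in MI_30min, where it was selected as higher. After larvae the libraries held 165, 236 and 239.9 CPM at 30 min and 224, 255 and 308 at 90 min, and after springtails 136, 141 and 157 and 173, 199 and 179 at the same times. Every larva-grazed library lay above every springtail one at either time. The log2 differences were 0.56 ± 0.15 at 30 min (adjusted p = 0.00233) and 0.50 ± 0.15 at 90 min (adjusted p = 0.0072). By 8 h the group means were 185 CPM after injury, 193 after larvae and 187 after springtails, beside 192 in CT8.

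**Figure D4:**
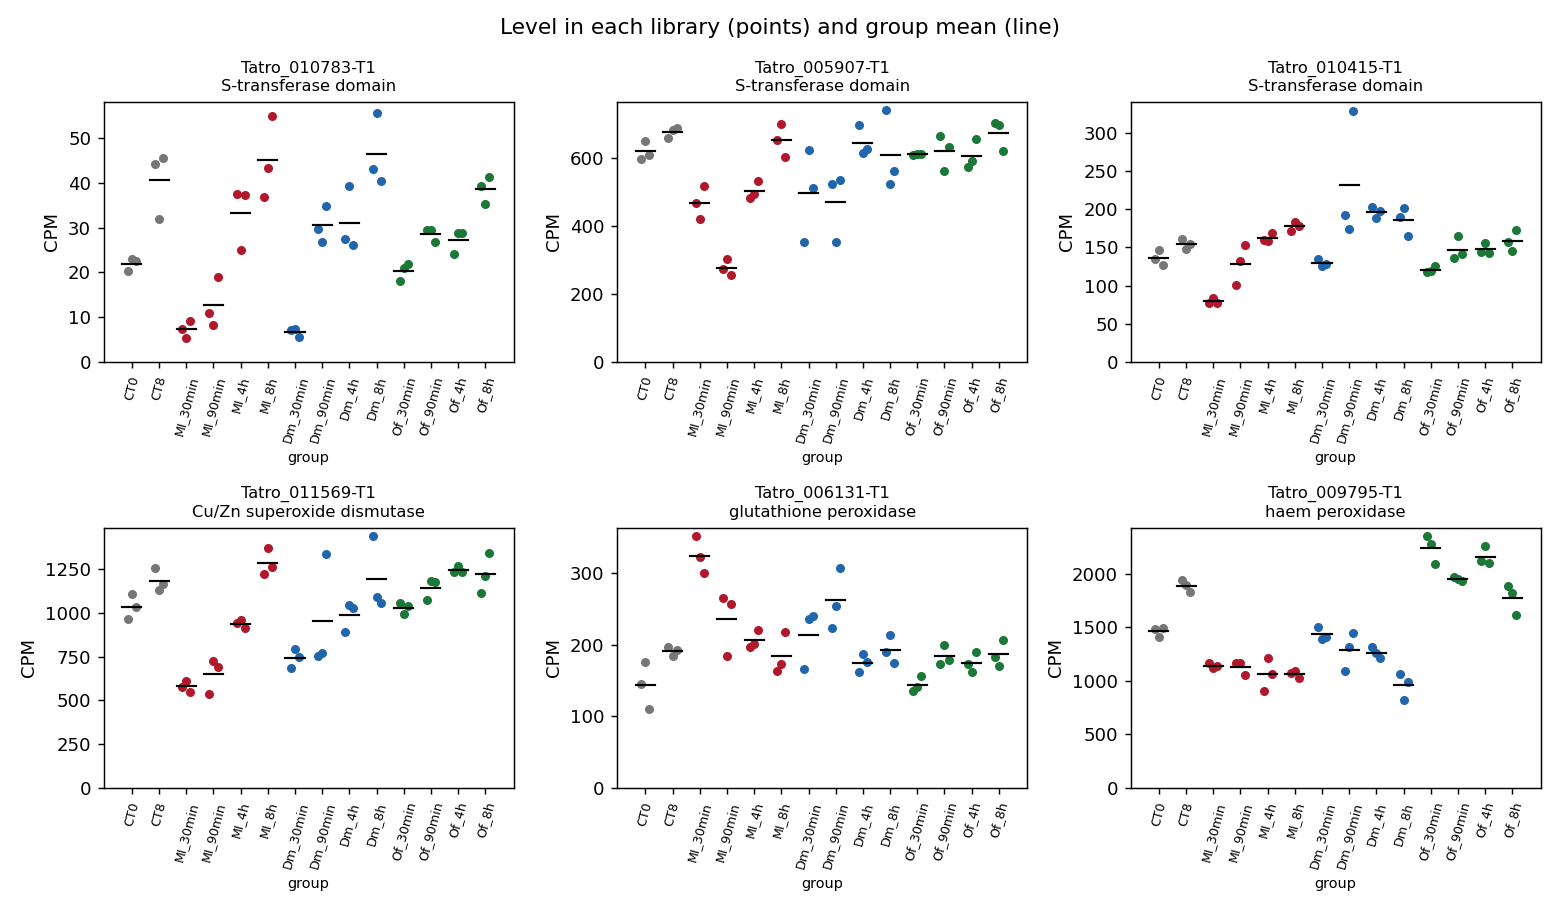
CPM in each of the 42 libraries (points) and group means (lines) for 6 genes, each on its own axis from 0. In 4 panels the libraries of early injury or early larval grazing are the lowest, the glutathione peroxidase is highest at MI_30min with 299.9 to 352 CPM, and the haem peroxidase is highest at Of_30min with 2093 to 2355 CPM.

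Glutathione S-transferases, which attach glutathione to reactive compounds, made up the largest role group. The largest change over time among the 34 genes was that of Tatro_010783-T1. It stood at 7.24, 7.44 and 5.52 CPM in Dm_30min, at 29.8, 26.9 and 34.9 in Dm_90min and at 43.1, 55.6 and 40.5 in Dm_8h. In injured mycelium the libraries held 10.9, 8.27 and 19 CPM at 90 min and 36.9, 43.3 and 54.8 at 8 h. The libraries did not overlap between the early and late groups, nor between MI_90min and Dm_90min. The 8 h level after larvae was 6.66-fold that at 30 min (log2 2.74 ± 0.23, adjusted p = 4.46e-12), and after injury it was 3.46-fold that at 90 min (log2 1.79 ± 0.21, adjusted p = 5.95e-09). At 90 min it was 2.28-fold higher after larvae than after injury (log2 1.19 ± 0.22, adjusted p = 0.000491). The gene also rose after springtails, from 18.1, 21.1 and 21.9 CPM at 30 min to 39.2, 35.2 and 41.4 at 8 h (log2 0.90 ± 0.22, adjusted p = 0.0089). In untreated mycelium it stood at 22 ± 1.47 CPM in CT0 and 40.6 ± 7.52 in CT8.

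For Tatro_005907-T1, the S-transferase-domain gene with the highest mean CPM, the lowest levels were those at 90 min after injury. Its libraries held 274, 304 and 255 CPM in MI_90min, 523, 354 and 534 in Dm_90min and 664, 560.2 and 632 in Of_90min. All injured libraries lay below all grazed ones. The log2 difference between larvae and injury was 0.76 ± 0.14 (adjusted p = 0.000624), and that between injury and springtails was -1.16 ± 0.14 (adjusted p = 3.62e-08). By 8 h injured libraries held 651, 699.8 and 602 CPM, a log2 rise of 1.23 ± 0.14 (adjusted p = 7.33e-09), beside 676 ± 14.6 in CT8.

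For Tatro_010415-T1 the libraries held 192, 173 and 328 CPM in Dm_90min, 101, 132 and 153 in MI_90min and 136, 164 and 141 in Of_90min. The larva-grazed libraries were the highest of the 3 groups, with the third far above the others. The log2 difference from injury was 0.81 ± 0.14 (adjusted p = 0.000203), or 0.51 without Dm_90min replicate 3 (adjusted p = 0.00374), and that from springtails was 0.61 ± 0.14 (adjusted p = 0.000752). That from springtails was 0.64 with only the 6 libraries of that pair in the fit (adjusted p = 0.0661). The gene Tatro_008392-T1 stood at 19.5, 17.7 and 23 CPM in Dm_90min and 9.19, 9.71 and 14.2 in MI_90min, without overlap. Its difference of 0.82 ± 0.20 (adjusted p = 0.00634) was 0.67 without MI_90min replicate 1 (adjusted p = 0.0815). Over time it rose in all 3 treatments: by 1.57 ± 0.20 after larvae from 30 min to 8 h (adjusted p = 3.32e-08), by 1.18 ± 0.22 after springtails (adjusted p = 0.000572) and by 1.19 ± 0.19 after injury from 90 min to 8 h (adjusted p = 1.87e-06).

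A different course was that of Tatro_004065-T1, the S-transferase-domain gene with the largest selected rise. It stood at 463, 369 and 374 CPM in MI_30min and 42.9, 54.7 and 66 in CT0. By 90 min injured libraries held 103, 68.7 and 66.9 CPM, and by 8 h 41.1, 41.7 and 37.8, with a log2 change of -0.99 ± 0.27 (adjusted p = 0.00249). After larvae the libraries held 57.1, 124 and 132 CPM at 30 min and 116, 92.1 and 86.8 at 90 min, and after springtails 53.6, 55.4 and 54.5 and 41.5, 34.5 and 46.9. The groups did not overlap at either time, though the lowest Dm_30min library came close to the springtail ones. The gene was higher after larvae than after springtails at 30 min (log2 0.93 ± 0.28, adjusted p = 0.00656) and at 90 min (log2 1.28 ± 0.28, adjusted p = 0.000526). In Dm_4h 1 library stood apart, at 52.3, 141 and 69.9 CPM, and the difference from Of_4h (log2 0.90 ± 0.27, adjusted p = 0.0122) was 0.42 without that library, replicate 2 (adjusted p = 0.279), and 0.82 without Of_4h replicate 2 (adjusted p = 0.0581).

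The other S-transferase-domain genes followed no single course. Tatro_009016-T1 was lower after injury than after springtails at 4 h, with libraries at 342, 333 and 337 CPM against 571, 583 and 479.6 (log2 -0.69 ± 0.13, adjusted p = 8.68e-05). At 8 h Tatro_002546-T1 stood at 93.4, 61.4 and 83.5 CPM after injury and 123, 138 and 161 after springtails, also without overlap (log2 -0.82 ± 0.16, adjusted p = 0.00036). Tatro_010890-T1 rose after larvae from 34.8, 51.6 and 31.5 CPM at 30 min to 99.6, 90.4 and 81 at 8 h (log2 1.19 ± 0.16, adjusted p = 1.57e-07). Group means of the role group as a whole ran from 0.571 to 676 CPM. A gene with few reads, Tatro_002396-T1, held 0.207, 0 and 1.5 CPM in CT0 and 8.77, 7.34 and 4.42 in MI_30min and was called in none of the comparisons that leave out the selecting libraries. A second gene selected as higher, Tatro_009573-T1, had a group mean of 51.6 CPM in MI_30min and between 15.6 and 22.1 in all other groups. Tatro_001184-T1, at 12.5, 9.82 and 10.6 CPM after injury and 5.93, 6.04 and 7.34 after springtails at 4 h, was called higher there (log2 0.75 ± 0.24, adjusted p = 0.0153). Without MI_4h replicate 1 the adjusted p was 0.0669, without Of_4h replicate 1 it was 0.053 and without Of_4h replicate 2 it was 0.0591. Of the other 4 genes of the group, described to complete the account, Tatro_010831-T1 rose over time after larvae and after injury under every library left out. Tatro_006542-T1 and Tatro_007073-T1 were called higher in Dm_90min than in MI_90min, but in 3 and 4 of the 6 fits that each left out 1 library of that pair. Tatro_004888-T1 was called in the larva course from 30 min to 8 h, with an adjusted p of 0.216 without Dm_8h replicate 3, 0.131 without Dm_30min replicate 2 and 0.0502 without Dm_8h replicate 2.

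Other glutathione genes included 3 with the formaldehyde-activating/centromere protein V domain, a hydroxyacylglutathione hydrolase (glyoxalase II, which completes the detoxification of methylglyoxal), a glutathione synthase domain and the dehydrogenase of S-(hydroxymethyl)glutathione, the adduct of formaldehyde and glutathione. The dehydrogenase gene Tatro_009660-T1 stood at 226, 234 and 337 CPM in Dm_90min and at 169.9, 174 and 181 in MI_90min, without overlap (log2 0.58 ± 0.13, adjusted p = 0.00235). Without Dm_90min replicate 3 the difference was 0.40 (adjusted p = 0.0388). The hydrolase gene Tatro_010656-T1 rose after larvae from 91.1, 77.3 and 78.6 CPM at 30 min to 172, 142 and 151 at 8 h (log2 0.91 ± 0.13, adjusted p = 2.44e-07), with no overlap. A formaldehyde-activating-domain gene, Tatro_001031-T1, was higher after larvae than after springtails at 4 h, at 92.2, 102 and 108 against 68.5, 58.6 and 70.3 CPM (log2 0.61 ± 0.14, adjusted p = 0.00136). The synthase-domain gene Tatro_005525-T1 was lower at that time, at 34, 37.3 and 32.5 against 53.7, 47.8 and 46.5 CPM (log2 -0.52 ± 0.14, adjusted p = 0.00432). The other genes with the formaldehyde-activating domain had unlike courses. Tatro_006459-T1 rose over time after larvae and after injury, with injured libraries at 63.7, 75.5 and 82.7 CPM at 90 min and 128, 153 and 139 at 8 h, without overlap (log2 0.93 ± 0.17, adjusted p = 2.01e-05). Tatro_000527-T1 stood at 23.9, 21.6 and 24.4 CPM in Dm_4h and 15.7, 14.7 and 14.9 in Of_4h, and that call (log2 0.63 ± 0.23, adjusted p = 0.0387) was lost on leaving out any 1 of the 6 libraries, with adjusted p from 0.0503 to 0.117.

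The glutaredoxin gene Tatro_004918-T1 was mostly lower after damage than after springtails. At 30 min its libraries held 123, 119 and 112 CPM after larvae and 198, 207 and 210.4 after springtails, and the groups did not overlap (log2 -0.80 ± 0.10, adjusted p = 4.61e-08). It was called lower against springtails in 6 of the 7 such comparisons, the exception being larvae at 4 h. The call for larvae at 8 h was kept in 7 of 12 alternative fits, with a largest adjusted p of 0.0583. Those for larvae at 90 min and injury at 8 h were kept in 11 of 12, and the others in all 12. At 4 h it stood at 242, 230.5 and 215 CPM after larvae and 142, 165 and 190.1 after injury, a log2 difference of 0.47 ± 0.10 (adjusted p = 0.00175) that was 0.36 without MI_4h replicate 1 (adjusted p = 0.0512).

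In the thioredoxin group the phosducin-type gene Tatro_003121-T1 was lower after damage than after springtails in 6 of 7 comparisons, the exception again being larvae at 4 h. Injured libraries held 21.5, 22.7 and 17.8 CPM at 90 min and 25.5, 28.7 and 33.9 at 4 h. Larva-grazed ones held 22.8, 31.7 and 18.7 and 54.4, 50.6 and 53.1, and springtail-grazed ones 48.4, 54.5 and 53.6 and 63.8, 60.1 and 58.8. At 90 min all injured and larva-grazed libraries lay below the springtail ones, whereas at 4 h the larva-grazed libraries lay between the other groups. The log2 difference from springtails at 90 min was -1.35 ± 0.18 for injury (adjusted p = 9.65e-08) and -1.04 ± 0.18 for larvae (adjusted p = 2.11e-05). At 4 h larvae were above injury by 0.84 ± 0.16 (adjusted p = 0.000821).

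Of the 2 genes with the plain thioredoxin domain text, Tatro_010238-T1 stood at 106, 84.5 and 91.2 CPM in Dm_30min, 193, 196 and 283 in Dm_90min and 113, 153 and 162 in MI_90min. All Dm_90min libraries lay above the others. The log2 difference between larvae and injury at 90 min was 0.63 ± 0.12 (adjusted p = 0.000704), or 0.45 without Dm_90min replicate 3 (adjusted p = 0.0138). The other, Tatro_008457-T1, was lower at 4 h than after springtails, with 93.2, 104 and 87.3 CPM after larvae, 91.8, 111 and 99.8 after injury and 159, 156 and 142 after springtails. Its log2 differences were -0.69 ± 0.14 for larvae (adjusted p = 0.000289) and -0.59 ± 0.14 for injury (adjusted p = 0.000873). The DSBA-like gene Tatro_001360-T1, of a family named after bacterial disulphide-forming proteins, was high early. It stood at 36.8, 25.7 and 31 CPM in Dm_30min against 11.8, 9.98 and 9.77 in Of_30min (log2 1.60 ± 0.25, adjusted p = 2.09e-06). By 8 h after larvae it was at 6.1, 13.4 and 12.5 CPM, with a log2 change of -1.56 ± 0.23 (adjusted p = 9.51e-07). The thioredoxin-fold gene Tatro_001747-T1 rose after springtails from 94.6, 85.4 and 90.6 CPM at 30 min to 159, 146 and 176 at 8 h (log2 0.83 ± 0.18, adjusted p = 0.0029). Tatro_007786-T1, of the same text, was lower at 30 min after larvae than after springtails, at 82.4, 76.8 and 81.5 against 109, 116 and 113 CPM (log2 -0.49 ± 0.11, adjusted p = 0.000264). The third gene of that text, Tatro_011849-T1, was called lower in the same comparison, but not without Of_30min replicate 2 (adjusted p = 0.272), Dm_30min replicate 2 (adjusted p = 0.0965) or Dm_30min replicate 1 (adjusted p = 0.0578).

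Over time more of the genes rose than fell in every treatment. As 27 of 34 were selected as lower at 30 min after injury, rises from early levels cannot be set apart from that selection. All genes tested were not selected in this way. From 30 min to 8 h after larvae 18 of 34 rose (21.5% of all genes tested) and 4 fell (21.7%), with a median log2 change of 0.47 beside -0.01 over all genes. From 90 min to 8 h after injury 18 rose (22.6%) and 4 fell (23.1%), with a median of 0.34 beside 0.00. The risers included the superoxide dismutase and the catalase-peroxidase after either treatment, 4 of 6 other glutathione genes after larvae and 5 of 6 after injury, and 7 of 15 S-transferase-domain genes after each. The glutaredoxin rose after larvae, while its call after injury (log2 0.26 ± 0.10, adjusted p = 0.0242) was lost without MI_8h replicate 2 or 3 or MI_90min replicate 1 or 2, with adjusted p from 0.0653 to 0.123. Of the 18 genes that rose after larvae, 15 were among the 18 that rose after injury. From 30 min to 8 h after springtails 7 rose (3.44%) and 1 fell (1.85%). Those 7 are all among the 18 of the larva course. Overlaps between the courses were not counted over all genes, so whether the sharing is particular to the set was not tested. Leaving out Of_8h replicate 3 or Of_30min replicate 1 gave 5 in all. With library totals alone 13 rose and 0 fell, beside 616 that rose and 62 that fell of all 9193 genes tested. In untreated mycelium from CT0 to CT8 7 rose (5.09%) and 1 fell (3.32%). Those controls served in the selection, and the count was 4 without CT8 replicate 1 and 3 without CT0 replicate 3. The growing-hypha list moved over the same hours, with 5 of 9 genes called higher and 1 lower in Dm_8h than in Dm_30min, 6 of 9 higher and 1 lower in MI_8h than in MI_90min and 0 of 9 called by edgeR between Of_30min and Of_8h, where 1 had an unadjusted p under 0.05. The summed level of 4 conidiation genes (velvet factors, a hydrophobin and a Spo7-like gene) went from 123 to 146 CPM in MI_90min to 293 to 354 in MI_8h, from 142 to 154 in Dm_30min to 386 to 442 in Dm_8h, and from 227 to 248 in Of_30min to 247 to 262 in Of_8h. Of the 4, 2 were called higher in the larva course and 3 in the injury course, and the hydrophobin had by far the largest log2 changes, at 7.42 and 6.47 beside medians of 0.27 and 0.57 over the list. The part of either list was not tested.

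**Figure D5:**
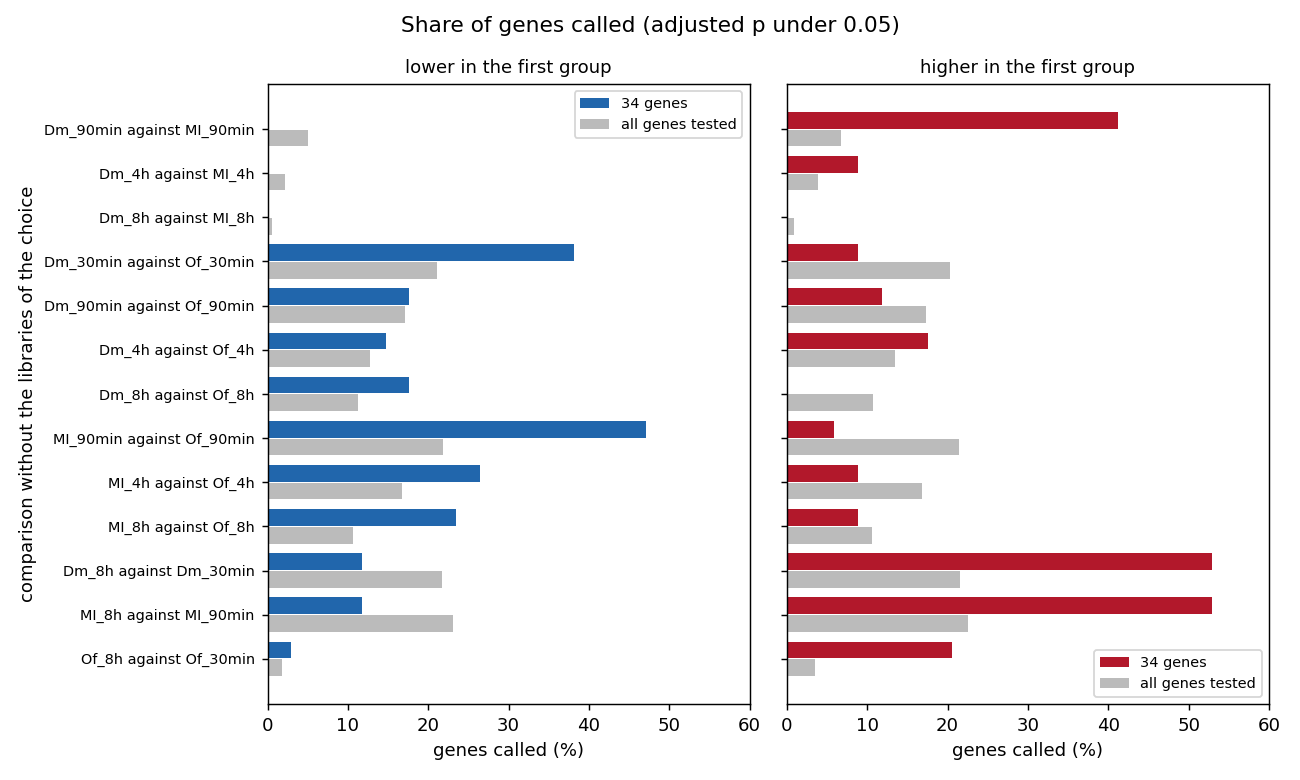
Percentage of the 34 genes (coloured) and of all 9193 genes tested (grey) called lower (left) or higher (right) in each of 13 comparisons. In these neither group was used to select the genes, though the fit holds all libraries. The coloured bars exceed the grey ones most for larvae against injury at 90 min (41.2% against 6.73% higher), injury against springtails at 90 min (47.1% against 21.9% lower) and the rises over time (52.9% against 21.5% and 22.6%). Most of the 34 genes, but not all genes tested, were selected as lower early after injury.

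Against springtails, the counts of lower genes were highest at 30 min after larvae and at 90 min after injury, the earliest time tested for each. Low levels early after damage cannot be set apart from the selection, which took 27 of 34 genes as lower after injury. At 30 min after larvae 13 of 34 were lower than after springtails (21.1% of all genes tested) and 3 higher (20.3%), with 4 of 7 thioredoxin-domain genes among the lower. At 90 min larvae and springtails differed in 6 lower (17.1%) and 4 higher (17.3%), shares close to those of all genes. With library totals alone it was 8 lower and 3 higher. At 90 min after injury 16 were lower than after springtails (21.9%) and 2 higher (21.4%), with a median log2 of -0.46. Of the 14 genes higher in Dm_90min than in MI_90min, 10 were among those 16, but both comparisons use the MI_90min libraries. The growing-hypha sum in Of_90min, given above, was higher than in both damaged groups, and its part was not tested.

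At 4 h and 8 h between 6 and 12 of the genes were called in each comparison. At 4 h after larvae 5 were lower (12.8%) and 6 higher (13.4%) than after springtails, and the 11 became 7 without Dm_4h replicate 2, Of_4h replicate 1 or Of_4h replicate 2. At 8 h after larvae 6 were lower (11.3%) and 0 higher (10.7%), with 2 higher at an unadjusted p under 0.05 in edgeR and 0 higher in DESeq2. Without Of_8h replicate 1 or 3 the 6 became 3. At 4 h after injury 9 were lower (16.8%) and 3 higher (16.8%), or 7 and 4 with library totals alone. At 8 h after injury 8 were lower (10.7%) and 3 higher (10.6%), or 4 and 4 with library totals alone, and the 11 became 7 without MI_8h replicate 2 or Of_8h replicate 1. The haem peroxidase and the phosducin-type gene were lower in both injury comparisons.

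Comparisons with the controls share their control libraries with the selection, so a low gene in the treated group cannot be set apart from a control level that helped select it. For the calls of edgeR, shares of all genes are those against CT0 up to 90 min and against CT8 later. They were not taken for the other control. Against CT0, 90 min after injury, 2 were higher (19.6%) and 10 lower (20%), while against CT8 3 were higher and 19 lower. At 30 min after larvae 5 were higher (19.1%) and 17 lower (20.4%). At 90 min after larvae 8 were higher (16.9%) and 4 lower (17%), or 6 and 6 with library totals alone and 5 and 7 against CT8. In the authors' deposited tables, whose control is not named, 17 of the 34 are listed at 90 min after injury, all lower, beside 22.4% of all genes. The authors' deposited tables list 19 at 30 min after larvae (2 higher, 17 lower), beside 23.3% of all genes, and 8 at 90 min after larvae (3 higher, 5 lower), beside 16.3%. These lists need not share the threshold or the control of the calls above, so the 2 kinds of count are not directly comparable.

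Springtail grazing gave 4 higher (6.2%) and 2 lower (3.7%) at 30 min, or 3 and 6 with library totals alone and 0 and 7 against CT8. At 90 min it gave 8 higher (3.72%) and 0 lower (1.75%), with 4 lower at an unadjusted p under 0.05 in edgeR and 0 lower in DESeq2. The 8 became 5, 1 and 4 without Of_90min replicates 1, 2 and 3, 2 without CT0 replicate 3, and 0 when CT8 was the control. Against CT8, 4 h after springtails, edgeR called 0 higher (0.0218%) and 0 lower (0.185%), with 5 at an unadjusted p under 0.05 and 0 in DESeq2. At 8 h it called 0 higher (0%) and 0 lower (0%), with 0 at an unadjusted p under 0.05 and 0 in DESeq2. Against CT0 these were 6 higher and 2 lower at 4 h and 8 higher and 2 lower at 8 h.

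Late after damage the calls against CT8 were mostly lower, but against CT0 the direction turned. At 4 h after injury 8 were lower (12.5%) and 0 higher (11.9%), with 1 higher at an unadjusted p under 0.05 in edgeR and 0 higher in DESeq2, and the 8 became 5 without MI_4h replicate 1 or 2. Against CT0 it was 4 higher and 3 lower. At 8 h after injury 8 were lower (11.6%) and 3 higher (10.9%), or 6 and 6 with library totals alone and 3 lower and 7 higher against CT0. At 4 h after larvae 6 were lower (9.78%) and 1 higher (10.8%), beside 1 lower and 3 higher against CT0. At 8 h after larvae 6 were lower (13%) and 0 higher (11.9%), with 4 higher at an unadjusted p under 0.05 in edgeR and 0 higher in DESeq2, and the 6 became 3 without CT8 replicate 2. Without Dm_8h replicate 3 or CT8 replicate 3 it was 2 lower and 2 higher, and against CT0 it was 3 lower and 8 higher. The haem peroxidase was among the lower genes in all 4, at 909, 1212 and 1062 CPM in MI_4h and 1314, 1259 and 1215 in Dm_4h against 1938, 1894 and 1834 in CT8.

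Genes of neighbouring pathways were taken from the same product texts by fixed words, without the 34, and are given for the same 3 comparisons. In Dm_90min against MI_90min, where 6.73% of all genes tested were higher and 4.99% lower, 1 of 10 genes for NADPH supply was higher and 1 lower. Both carry a 6-phosphogluconate dehydrogenase-like C-terminal domain, which other dehydrogenases share. Of 24 genes for quinone, aldehyde and sulfoxide detoxification 6 were higher and 1 lower, with 3 aldo/keto reductases (broad carbonyl-reducing enzymes) among the higher. Of 10 genes in the list for sources of reactive oxygen 1 was higher and 1 lower. Of 9 genes for glutathione precursors and turnover edgeR called 0, with 3 at an unadjusted p under 0.05, and of 2 disulphide isomerases 0, with 1 at that level.

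In MI_90min against Of_90min, where 21.4% of all genes were higher and 21.9% lower, 1 NADPH gene was higher and 6 lower, the lower ones including glucose-6-phosphate dehydrogenase, the entry enzyme of the pentose phosphate route. The counts were 1 higher and 4 lower for glutathione precursors, 3 and 12 for the detoxification list and 5 and 1 for the list of oxygen sources. The 5 are a lipoxygenase (which oxidises fatty acids), an alternative oxidase (a mitochondrial bypass) and 3 with a cytochrome b5-like domain, and no text in that list names an NADPH oxidase. The list was drawn by words in product texts, and whether its genes make reactive oxygen was not tested. Of the disulphide isomerases 1 was higher and 0 lower. From 30 min to 8 h after larvae, where 21.5% of all genes rose and 21.7% fell, 7 NADPH genes rose and 2 fell, 4 precursor genes rose and 1 fell, 16 detoxification genes rose and 3 fell, 2 oxygen-source genes rose and 3 fell, and edgeR called 0 of 2 isomerases, with 0 at an unadjusted p under 0.05.

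The 2 catalase texts left out of the set belong to genes with unlike courses. Tatro_007179-T1 held 122 ± 37.3 CPM in Dm_30min and 84.9 ± 24.2 in MI_90min against 2.81 ± 1.89 in CT0 (SD, n = 3), while Tatro_008157-T1 held 215 ± 25.4 CPM in Dm_30min against 505 ± 77.6 in CT0.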

How the data were processed

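Total RNA was extracted with TRIzol from whole mycelium and made into libraries with a stranded total RNA kit, per the labels' protocols. FastQC 0.11.6, HISAT2 2.1.0 and HTSeq 0.14.1 are named in the submitters' processing notes. The sources used here name no genome build or annotation and do not say whether counting used the strand, so reads of overlapping or antisense genes cannot be told apart. The authors deposited raw counts for 12018 transcript models. Models of 1 gene held identical counts in all 204 genes with several, and 1 was kept for each of 11786 genes. The authors also deposited tables of changed genes with log2 fold changes, p-values with false discovery rates, and an F statistic (a score), per the file headers. They name no control. The log2 changes of the authors' 30 min injury table lay nearest to those of this fit against both controls together. The mean absolute difference was 0.039 there, beside 0.163 against CT0 alone and 0.122 against CT8 alone.

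Counts were fitted with edgeR 4.0.16 in R 4.3.3 (limma 3.58.1) by the quasi-likelihood test over all 42 libraries, with the default filter (9193 genes kept), TMM scaling and 1 coefficient for each group. Adjusted p is Benjamini-Hochberg over all genes tested, and no fold minimum was set. Standard errors were taken as the absolute log2 change over the root of the F statistic. The fit was also run on simulated counts, drawn with a common mean per gene apart from set changes and with the fit's own spread. That run cannot show how the fit does where the spread differs between groups. DESeq2 1.42.0 and the other alternatives are given in the closing section. Replicates were labelled as biological and numbered, and no column went without a sample (0 such columns). Values rest on totals of 1152096 to 5398093 counts.

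The genes were selected and the lists chosen with earlier results of these data known. Genes with values are, in each comparison free of the selecting libraries, up to 4 largest rises and 4 largest falls among called genes whose higher group has a mean of 10 CPM or more and whose libraries do not overlap. Also named are all members of role groups of 4 or fewer, the highest mean CPM of each role group and the gene nearest to the selecting threshold. The remaining genes were added after their values were seen.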

Additional observations from a re-analysis of the deposited data

Results flagged for a closer look

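The larva-minus-injury difference at 90 min was set against the same difference at later times in a test of the change itself, added after the data were seen, with edgeR's quasi-likelihood test adjusted over all genes. Against 4 h it was larger at 90 min for 7 genes. The S-transferase-domain genes were Tatro_010783-T1 with a log2 of 1.31 ± 0.29 (SE, adjusted p = 0.0108), Tatro_008392-T1 with 1.23 ± 0.27 (adjusted p = 0.00929) and Tatro_002546-T1 with 0.84 ± 0.23 (adjusted p = 0.0381). The thioredoxin genes were Tatro_001747-T1 with 1.01 ± 0.25 (adjusted p = 0.0199) and Tatro_010238-T1 with 0.62 ± 0.17 (adjusted p = 0.0369). The 90 min difference of Tatro_001747-T1 itself, 0.70, was 0.32 without Dm_90min replicate 3 (adjusted p = 0.173). Without MI_90min replicate 1 it was 0.54 (adjusted p = 0.0958). That of Tatro_002546-T1, 0.52, was 0.37 (adjusted p = 0.201) and 0.38 (adjusted p = 0.253) in the same 2 fits. The catalase-peroxidase Tatro_002100-T1 had 0.72 ± 0.19 (adjusted p = 0.0337) and the dehydrogenase Tatro_009660-T1 had 0.72 ± 0.18 (adjusted p = 0.0225).

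Against 8 h the difference was larger at 90 min for 6 genes. These were Tatro_010783-T1 with 1.18 ± 0.29 (adjusted p = 0.0146), Tatro_005907-T1 with 0.85 ± 0.20 (adjusted p = 0.0104), Tatro_001747-T1 with 0.83 ± 0.25 (adjusted p = 0.0421), Tatro_010415-T1 with 0.75 ± 0.19 (adjusted p = 0.0198), the superoxide dismutase Tatro_011569-T1 with 0.65 ± 0.20 (adjusted p = 0.0488) and the hydrolase Tatro_010656-T1 with 0.60 ± 0.18 (adjusted p = 0.0389). Leaving out MI_90min replicate 1 brought the counts to 0 against 4 h and 1 against 8 h, and leaving out Dm_90min replicate 3 brought them to 3 and 2. Against 4 h the count was 2 without MI_4h replicate 1 and 3 without Dm_4h replicate 1, Dm_4h replicate 3 or MI_4h replicate 3. Against 8 h it was 10 without Dm_90min replicate 2, 3 without Dm_8h replicate 3 and 2 without MI_8h replicate 2. The part of these libraries was not tested further. The genes named here for either time were all selected as lower early after injury. Larger differences at 90 min, which use MI_90min, cannot be set apart from that selection.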

How the results depend on the processing

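Counts below are of the 34 genes called in either direction. No filter on low counts, DESeq2 and a fit with the replicate block (14 genes for larvae against injury at 90 min) moved no count of the comparisons they were run on by over 1.5 times. The replicate numbers did not pair the samples: in 0 of 25 comparisons was every same-number correlation over 0.1 (range -0.21 to 0.11), and in 1 comparison every library correlated best with its own number. The 2 differences over time were not run under DESeq2 or with only the libraries compared. Of 153 called changes of single genes in the 13 comparisons without the selecting libraries, 1834 values under alternatives gave 1598 on the same side of the threshold, 236 past it no longer and 0 of opposite sign. In each case below the cause was not tested. Fits that leave libraries out also hold fewer libraries, and the part of that number was not tested either.

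With library totals in place of TMM the counts were 3 in Of_90min against CT0, 5 in MI_4h and 3 in Dm_8h against CT8, 9 in Dm_90min against MI_90min, 13 in Of_8h against Of_30min and 4 for the change from 90 min to 4 h. With that scaling the median log2 of all genes moved by -0.17 in Of_30min and -0.13 in Dm_90min against CT0, 0.14 in MI_8h against MI_90min, 0.15 in Of_8h against Of_30min, 0.12 in MI_8h against CT8, 0.11 in MI_8h against Of_8h, and 0.10 in MI_4h against Of_4h and in Dm_30min against Of_30min. Without the 4 shallowest libraries they were 7 in Dm_90min against MI_90min, 5 and 1 at 4 h and 8 h, 13 in CT8 against CT0, and 3 and 1 for the 2 differences over time. With only the libraries compared they were 18 in MI_8h, 13 in Dm_4h, 3 in Dm_8h and 8 in Of_4h against CT8, 0 in Dm_90min against MI_90min, 5 in Dm_90min, 3 in Dm_8h and 17 in MI_8h against springtails, and 18 in Of_8h against Of_30min.

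With the other control they were 22 in MI_90min, 0 in Of_90min, 4 in Dm_4h, 11 in Dm_8h, 8 in Of_4h and 10 in Of_8h. With the mean of both controls they were 22, 0 and 10 in MI_90min, Of_90min and Dm_8h and 4 in Of_4h, and it gave more higher than lower calls late after damage in MI_8h (6 and 5) and Dm_8h (6 and 4). At a change of at least 2-fold they were, against controls, 4, 5, 3, 1 and 0 in MI_90min, Dm_30min, Dm_90min, Of_30min and Of_90min and 1 each in MI_4h, MI_8h, Dm_4h and Dm_8h. At that fold they were 1 and 0 for larvae against injury at 90 min and 4 h, 3, 2, 0 and 1 for larvae against springtails from 30 min to 8 h, and 3, 2 and 1 for injury against springtails from 90 min to 8 h. Over time they were 8, 3 and 1 for larvae, injury and springtails, 0 in CT8 against CT0, and 3 and 1 for the differences over time.

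Leaving out 1 library gave 1 to 8 genes in Of_90min against CT0, 5 to 7 in MI_4h and 3 to 6 in Dm_8h against CT8, and 6 to 16, 1 to 3 and 0 to 1 for larvae against injury at 90 min, 4 h and 8 h. It gave 7 to 10 and 3 to 5 for larvae against springtails at 4 h and 8 h, 7 to 9 for injury against springtails at 8 h, 5 to 6 in Of_8h against Of_30min, 3 to 9 in CT8 against CT0, and 0 to 8 and 1 to 10 for the differences over time. Over all 9193 genes tested, library totals gave 193 higher and 291 lower in Dm_4h against MI_4h, and 1315 and 1640 in Dm_90min against Of_90min. The same scaling gave 1958 and 962 in MI_4h and 1370 and 458 in MI_8h against springtails. Against controls it gave 1036 and 2068 in Dm_90min, 164 and 844 in Of_30min and 1453 and 493 in MI_8h. Under DESeq2 and with libraries left out, calls were not counted over all genes. Genes with few reads, such as Tatro_002396-T1 and Tatro_006112-T1, could not be ordered between most groups at this depth.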
